A study of Mus musculus with 2 samples.

Results

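Liver RNA was analysed for 9 genes of vitamin K-dependent blood clotting. F2, F7, F9 and F10 encode the clotting factors prothrombin, VII, IX and X. Proc, Pros1 and Proz encode the anticoagulant proteins C, S and Z. Ggcx and Vkorc1 encode enzymes of the vitamin K cycle. The members were all probe sets whose platform annotation names one of these symbols, which gave 12 of 22626 probe sets and 9 of 12393 genes. The question of the series is how the type of dietary olive oil relates to hepatic transcripts. One Affymetrix array, titled orujo, came from mice lacking apolipoprotein E on a high-fat diet with added unsaponifiable fraction of olive oil, the minor components that are not fatty acid esters. The other, titled olive, came from mice lacking apolipoprotein E on a high-fat diet with added olive oil. Apolipoprotein E deficiency and the high-fat diet were thus shared by both groups. The sources used here give neither sex nor age, nor how the animals came to lack apolipoprotein E, nor how many stand behind each array. With 1 array per diet there was no replicate, and the ratios below carry no error between animals and no test.

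The clotting factors, protein C, protein S and protein Z are made largely by hepatocytes and secreted into plasma. Each carries a Gla domain, in which the carboxylase encoded by Ggcx turns glutamates into gamma-carboxyglutamates that bind calcium and attach the protein to phospholipid membranes. The carboxylase uses up reduced vitamin K, which the epoxide reductase encoded by Vkorc1, the target of warfarin, regenerates. Thrombin, factor VIIa, factor IXa and factor Xa drive clot formation. Activated protein C, with protein S as its cofactor, inactivates the clotting cofactors Va and VIIIa, and protein Z helps a serpin inhibit factor Xa.

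All 4 clotting factor genes had somewhat higher signal on the orujo array, by 1.15-fold to 1.45-fold. The anticoagulant genes were not alike: Pros1 was 3.23-fold higher, Proz 1.21-fold higher, and Proc 1.09-fold lower. Both vitamin K cycle genes were lower, Ggcx by 1.66-fold and Vkorc1 by 1.33-fold. Pros1 was the single member past 2-fold in either direction.

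The deposited intensities are linear, and their 2% trimmed mean was 100.05 on each array (22690 probe sets, controls included). Ratios are therefore relative to a common average, and intensities of different probe sets are not comparable as levels. A gene was called measured if its representative probe set, the brightest by mean log2 signal, exceeded a floor of 35.6 on both arrays, the median of their pooled values. That held for 6640 genes, including all 9 members, and all 12 member probe sets passed it. The log2 ratio is the orujo array over the olive array, and its median over measured genes was -0.02 with an SD of 0.42. For the 1453 genes with exactly 2 measured probe sets, the ratios of the pair differed with an SD of 0.44 log2 units, or 0.31 for a single probe set. This SD describes measurement on shared RNA and says nothing of variation between animals. The hepatocyte markers Alb, Ttr, Apoa1, Apob, Cps1 and Hnf4a were all measured, and the median of their 6 log2 ratios was 0.05. Apoe gave 99.6 on the orujo array and 102.7 on the olive array, both above the floor. It is unknown here whether its probe set overlaps what was deleted, and the signal therefore checks neither label. The 5 exocrine pancreas markers with a probe set had a summed signal of 442 on the orujo array and 3629 on the olive array. Each was lower on the orujo array, by 5.71-fold to 13.1-fold, against 0.979% of measured genes at least 2-fold lower. 18S ribosomal RNA read 2.54 log2 units higher on the orujo array with its 5′ control probe set. Its middle control probe set read 2.48 higher, and its 3′ one 0.34 higher. The part of the pancreas transcripts or of the 18S difference in the results below was not tested.

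F2 encodes prothrombin, the precursor of the protease that cuts fibrinogen. Its probe set 1418897_at gave 3654.4 on the orujo array and 3177.2 on the olive array, a log2 ratio of 0.20. This was the smallest ratio among the clotting factors, and 54.3% of measured genes had an absolute ratio at least as large. F7 encodes factor VII, which starts clotting together with tissue factor. Its probe set 1419321_at gave 504.3 on the orujo array and 418.2 on the olive array, a 1.21-fold higher signal (log2 ratio 0.27). In bulk liver RNA, more cells that express a gene and more of its RNA per cell cannot be told apart.

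F9, the X-linked gene of the factor lacking in hemophilia B, had a larger ratio. Its probe set 1427393_at gave 1375.8 on the orujo array and 1022.6 on the olive array, a 1.35-fold higher signal (log2 ratio 0.43). F10 encodes factor X, whose active form converts prothrombin to thrombin. Its probe set with the highest signal, 1449305_at, gave 1679.4 on the orujo array and 1155.9 on the olive array, a 1.45-fold higher signal (log2 ratio 0.54). The other F10 probe sets gave the same direction. The probe set 1418993_s_at, whose suffix marks a sequence that other transcripts share, gave 130.2 on the orujo array and 77.3 on the olive array (log2 ratio 0.75). The remaining one, 1418992_at, gave 88.4 on the orujo array and 45.7 on the olive array (log2 ratio 0.95), and its olive array value was 1.28 times the floor. F10 thus had the highest ratio of the 4 clotting factor genes in its representative probe set, and all 3 of its probe sets were higher on the orujo array.

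**Figure D1:**
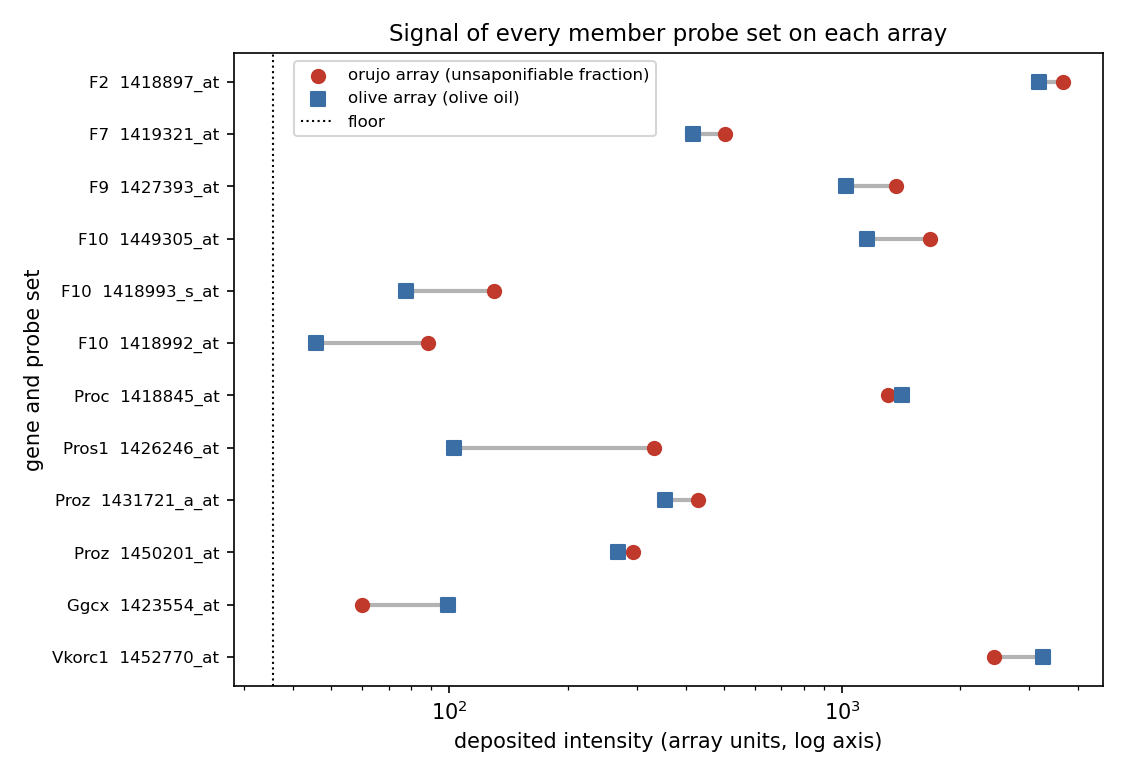
Deposited intensity (array units, log axis) of the 12 member probe sets on the orujo array (circles) and the olive array (squares), with a dotted line at the floor of 35.6. The widest gap on the log axis is that of Pros1, at 332.5 and 103, and Proc, Ggcx and Vkorc1 are the genes whose circle lies left of the square.

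The median log2 ratio of the clotting factors was 0.35, against -0.02 over all measured genes, and none of the 4 reached 2-fold. Among all measured genes, 1.33% were higher by 2-fold or more and 0.979% were lower by 2-fold or more; among the 9 members these counts were 1 and 0. A ratio above 1 was found for all 4 factors and for 47.1% of measured genes. Set against the single probe set SD of 0.31, F2 and F7 lay within 1 SD of no difference, and F9 and F10 lay at 1.36 and 1.71 SD.

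Pros1 encodes protein S, a cofactor of activated protein C and also a ligand of the receptors Tyro3 and Mertk. Its only probe set, 1426246_at, gave 332.5 on the orujo array and 103 on the olive array, a 3.23-fold higher signal (log2 ratio 1.69). This ranked 19th from the highest among 6640 measured genes, and 0.602% of them had an absolute ratio at least as large. The ratio was 5.38 times the single probe set SD, but no second probe set of Pros1 repeated it. Measured genes whose pair of log2 signals lay nearest to that of Pros1 over the 2 arrays were Scara5, Timm17a and Slc3a1, at distances of 0.18, 0.25 and 0.26 log2 units. Scara5, which encodes a scavenger receptor, gave 296.2 on the orujo array and 107.2 on the olive array. Timm17a, of mitochondrial protein import, gave 279.7 on the orujo array and 103 on the olive array. Slc3a1, a subunit of an amino acid transporter, gave 350.4 on the orujo array and 122.4 on the olive array.

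Besides hepatocytes, endothelial cells, platelets and T cells can express Pros1. The 5 endothelial markers (Pecam1, Cdh5, Kdr, Stab2 and Plvap) were all measured, with log2 ratios between -0.30 and 0.36 and a summed signal of 443.7 on the orujo array and 411.7 on the olive array. Of 4 platelet markers on the array, Itga2b and Pf4 were measured at -0.03 and -0.08, Gp9 lay above the floor on the orujo array alone (37 and 34.9 on the olive array), and Ppbp lay below it on both. Their summed signal, which includes values below the floor, was 159.7 on the orujo array and 159.5 on the olive array. Of 5 T cell markers, Cd3d, Cd3g, Cd4 and Cd8a lay below the floor on both arrays. Cd3e gave 46.1 on the orujo array and 18.8 on the olive array. The T cell markers, values below the floor included, summed to 77.9 on the orujo array and 69.1 on the olive array. The 5 macrophage and Kupffer cell markers had log2 ratios between -0.36 and 0.35. Of 5 neutrophil markers, 3 were measured, Ngp and Ltf at -0.03 and -0.12 and Mmp9 2.01-fold lower, and 2 lay above the floor on the orujo array alone. S100a8 gave 60.7 on the orujo array and 17.2 on the olive array, at least 1.71-fold higher against the floor, and S100a9 gave 49.2 on the orujo array and 20.8 on the olive array, at least 1.38-fold higher. The part of these cells in the Pros1 signal was not tested.

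Proc encodes protein C, which thrombin bound to thrombomodulin activates. Its probe set 1418845_at gave 1308.5 on the orujo array and 1421.1 on the olive array (log2 ratio -0.12), the smallest absolute log2 ratio of any member. Proz encodes protein Z, the cofactor of a serpin that inhibits factor Xa. Its probe set 1431721_a_at gave 429 on the orujo array and 354.2 on the olive array (log2 ratio 0.28), and 1450201_at gave 293 on the orujo array and 268.5 on the olive array (log2 ratio 0.13). Both Proz probe sets pointed the same way, and Proc and Proz lay within 1 single probe set SD of no difference. F7, F10 and Proz follow each other as protein-coding genes on mouse chromosome 8 in the RefSeq table of assembly GRCm38.p6. Their ratios were 1.21, 1.45 and 1.21.

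Set against each other by medians, the anticoagulants (0.28) and the clotting factors (0.35) differed by -0.07 on the log2 scale. With means, the anticoagulants stood at 0.62 and the clotting factors at 0.36, a difference of 0.26 in the opposite direction. Without Pros1 the anticoagulant median was 0.08. The means and the omission of Pros1 were chosen after seeing the data. Which class was higher therefore depended on how Pros1 was weighted among 3 genes, and the difference has no replicate check.

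**Figure D2:**
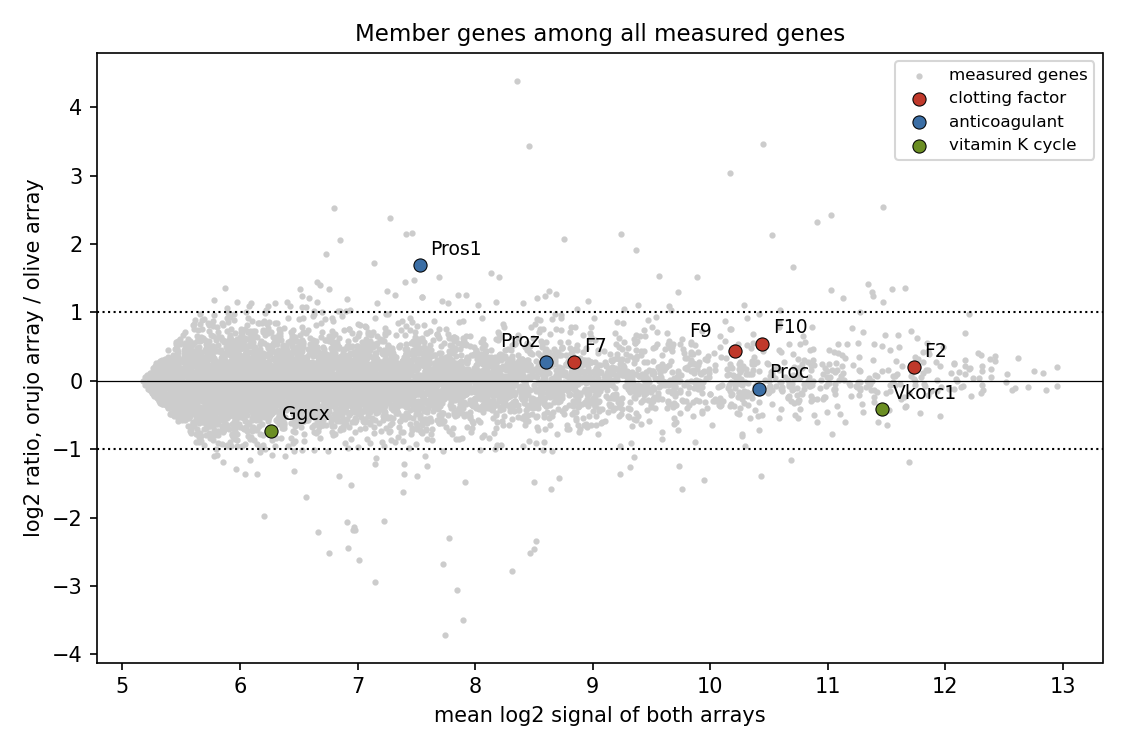
Log2 ratio of the orujo array over the olive array against the mean log2 signal of both arrays, for 6640 measured genes (grey) and the 9 members (coloured by class), with dotted lines at 2-fold. Pros1 at 1.69 lies above the upper line, and the other 8 members lie between the lines.

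The promoter windows of Pros1 and F9 are shown because each holds a match to the palindromic STAT motif, the site of the transcription factors that act downstream of interleukin-6. The windows come from RefSeq (GRCm38.p6), run 5′ to 3′ on the gene's strand from 250 bases before to 50 bases after the gene's start, and lie at chr16:62854057-62854356 (plus strand) for Pros1 and chrX:59999214-59999513 (plus strand) for F9. Capitals mark motif matches on either strand. The letters searched were TTCNNNGAA for STAT, TTNNGCAA for C/EBP, CAAAGTCCA for HNF4 and GTTAATNAT for HNF1, the last pair being hepatocyte nuclear factors.
Pros1: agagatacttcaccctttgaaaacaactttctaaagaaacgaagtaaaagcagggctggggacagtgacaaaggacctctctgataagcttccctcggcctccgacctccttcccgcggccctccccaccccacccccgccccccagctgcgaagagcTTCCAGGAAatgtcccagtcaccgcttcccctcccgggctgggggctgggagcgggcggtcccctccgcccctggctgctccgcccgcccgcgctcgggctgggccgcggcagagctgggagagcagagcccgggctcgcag
F9: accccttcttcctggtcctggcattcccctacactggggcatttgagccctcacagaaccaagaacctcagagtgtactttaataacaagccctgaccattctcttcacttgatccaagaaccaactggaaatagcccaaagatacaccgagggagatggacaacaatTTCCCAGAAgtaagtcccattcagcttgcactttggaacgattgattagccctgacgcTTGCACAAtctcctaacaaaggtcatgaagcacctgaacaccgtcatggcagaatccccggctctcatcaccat
The STAT match of Pros1 spans -92 to -84 relative to the start, counted from 0 at the start, and that of F9 spans -82 to -74. F9 also holds a C/EBP match at -24 to -17 on the opposite strand, which does not overlap its STAT match. Windows of 8 members were read, and that of Proc was not used here. The STAT letters were in 2 of the 8 windows and in 8.30% of 32851 windows of the same length. The C/EBP letters were in 2 of the 8 (F9 and Ggcx) and in 10.8% of all windows. HNF4 letters were in 0 of the 8 and in 0.475% of all, and HNF1 letters in 0 of the 8 and in 0.801% of all. A match describes letters in the window, not binding.

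Ggcx encodes the gamma-glutamyl carboxylase that all of these clotting proteins need. Its probe set 1423554_at gave 59.8 on the orujo array and 99.2 on the olive array, a 1.66-fold lower signal (log2 ratio -0.73). Only 2.83% of measured genes had a ratio as low or lower, and the value was -2.32 times the single probe set SD. For the dimmest 485 of the genes with a pair of probe sets, with signals between 38.4 and 84.7, the single probe set SD was 0.33, and Ggcx lay in that range by its mean log2 signal. Vkorc1 encodes the vitamin K epoxide reductase. Its probe set 1452770_at gave 2444.6 on the orujo array and 3257.2 on the olive array, a 1.33-fold lower signal (log2 ratio -0.41). Of measured genes, 12.3% had a ratio as low or lower. The median log2 ratio of the 2 enzymes was -0.57. Both were lower on the orujo array. Of the 7 genes of secreted proteins they serve, 6 had a ratio above 1, as did 47.1% of measured genes. Among those 6, F2, F7 and Proz lay within 1 single probe set SD of no difference. Over all 9 members the median was 0.27, and without Pros1 it was 0.24.

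Of 13 listed genes of other Gla proteins and vitamin K handling, 6 had a usable probe set and 5 were measured. The median log2 ratio of these 5 was -0.61, the value of Nqo1, against -0.02 over all measured genes. Of the 5, 1 was at least 2-fold lower and 0 at least 2-fold higher. Ephx1, which encodes the microsomal epoxide hydrolase of xenobiotic metabolism, gave 852 on the orujo array and 2241.4 on the olive array, a 2.63-fold lower signal. Prrg2, a transmembrane Gla protein gene, was at -0.95, read from a probe set with the suffix _a_at. Nqo1, a quinone reductase that can reduce vitamin K, was at -0.61 with signals of 43.4 on the orujo array and 66.3 on the olive array, close to the floor. Calu, which encodes calumenin, an inhibitor of the carboxylase, was the highest at 0.54. Mgp, the matrix Gla protein gene, lay above the floor on the orujo array alone, at least 1.90-fold higher against the floor. Gas6, which encodes a Gla protein related to protein S, gave 147.8 on the orujo array and 119.9 on the olive array (log2 ratio 0.30). Among these Gla protein genes, Prrg2 was thus lower on the orujo array, and Gas6 and Mgp were higher. Gas6 and Mgp were named after their values were seen.

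**Figure D3:**
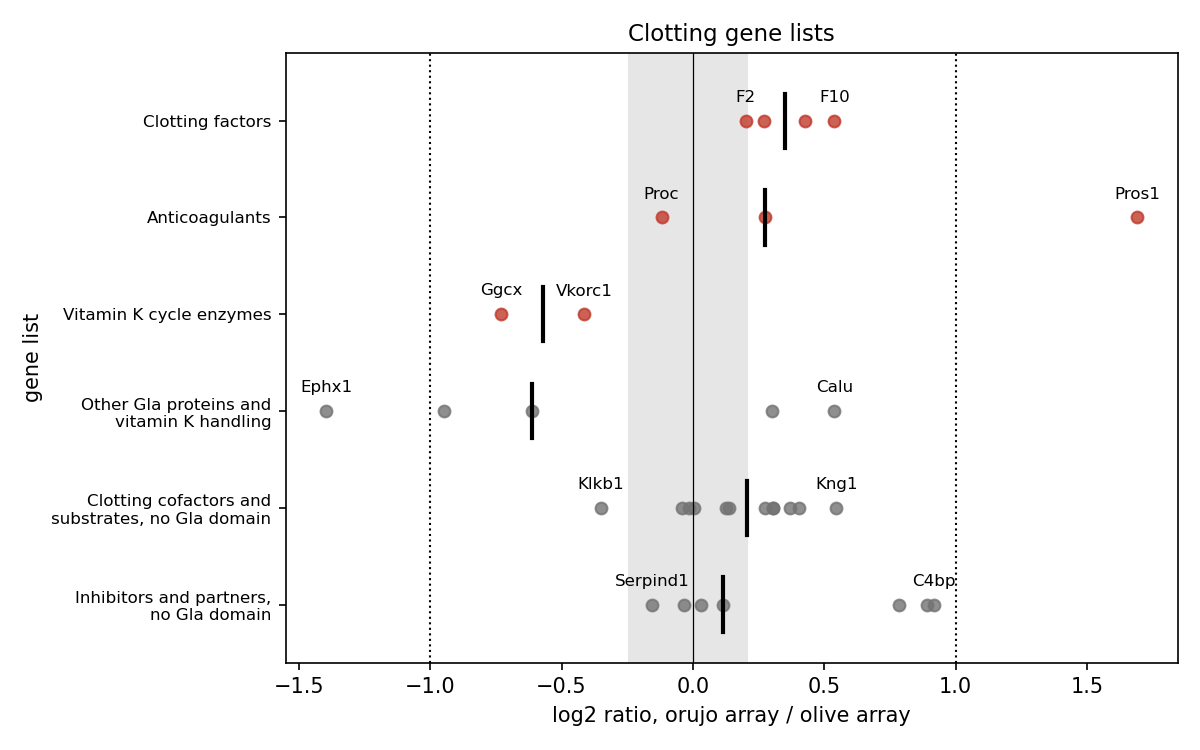
Log2 ratio of the orujo array over the olive array for each measured gene (points) of the 3 member classes (red) and of 3 related lists (grey), with list medians as black bars, dotted lines at 2-fold and a grey band from the 25th to the 75th percentile of all measured genes. The clotting factor median lies at 0.35 and the vitamin K cycle median at -0.57, and Pros1 and Ephx1 lie beyond the dotted lines.

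Clotting proteins without a Gla domain gave values for comparison. Cofactors and substrates of clotting had a median of 0.21 on the log2 scale over 12 measured genes of 15, with 9 positive ratios and 0 past 2-fold either way. The fibrinogen chain genes Fgb and Fgg were at 0.40 and 0.37, Kng1, which encodes kininogen, was highest at 0.55, and Klkb1, which encodes prekallikrein, was lowest at -0.35. F5 and F8, which encode the cofactors that protein C and protein S inactivate, were at 0.14 and 0.13, and a second probe set of F5 gave 0.52. Kng1 had a second probe set at 0.78. The tissue factor gene F3 lay below the floor on both arrays. F5, F8 and F3 were named after their values were seen.

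Inhibitors of clotting and partners of protein C or protein S had a median of 0.11 over 7 measured genes of 11, with 5 positive ratios and 0 past 2-fold. C4bp, which encodes a chain of the C4b-binding protein, a complement regulator known in humans to carry protein S, had the highest ratio. It gave 1750.5 on the orujo array and 926.9 on the olive array, a 1.89-fold higher signal. Thbd, which encodes thrombomodulin, was 1.85-fold higher, with an olive array signal of 36 next to the floor of 35.6. Serpina10, which encodes the serpin that works with protein Z, gave 2450.2 on the orujo array and 1421.6 on the olive array. This was a 1.72-fold higher signal, from a probe set with the suffix _s_at. Serpind1, heparin cofactor II, was lowest at -0.15. Mertk, a receptor of protein S, was at 0.03, and Axl, a receptor of the related Gla protein encoded by Gas6, was at -0.03. Tyro3, also a receptor of protein S, gave 32.9 on the orujo array and 41.6 on the olive array. It lay above the floor on the olive array alone. Mertk, Axl and Tyro3 were named after their values were seen.

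Regulators of hepatocyte genes, among them factors that act on clotting gene promoters, had a median of 0.38 on the log2 scale over 11 measured genes, with 8 positive ratios and 1 past 2-fold. That gene was Cebpd, a C/EBP transcription factor of the acute phase response, with 141.9 on the orujo array and 59.9 on the olive array (2.37-fold higher). Cebpb was at 0.72 and 0.51 in its 2 measured probe sets, and Onecut1 was at 0.52. Cebpa was lowest at -0.39. Hnf4a, a main activator of clotting factor genes in liver, was at 0.18, with -0.04 to 0.48 in its other probe sets. Stat3 was at 0.50, but its other probe sets gave -0.63 and 0.25. Hnf4a was read from a probe set with the suffix _s_at and Stat3 from one with the suffix _a_at. Stat3 was named after its values were seen.

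**Figure D4:**
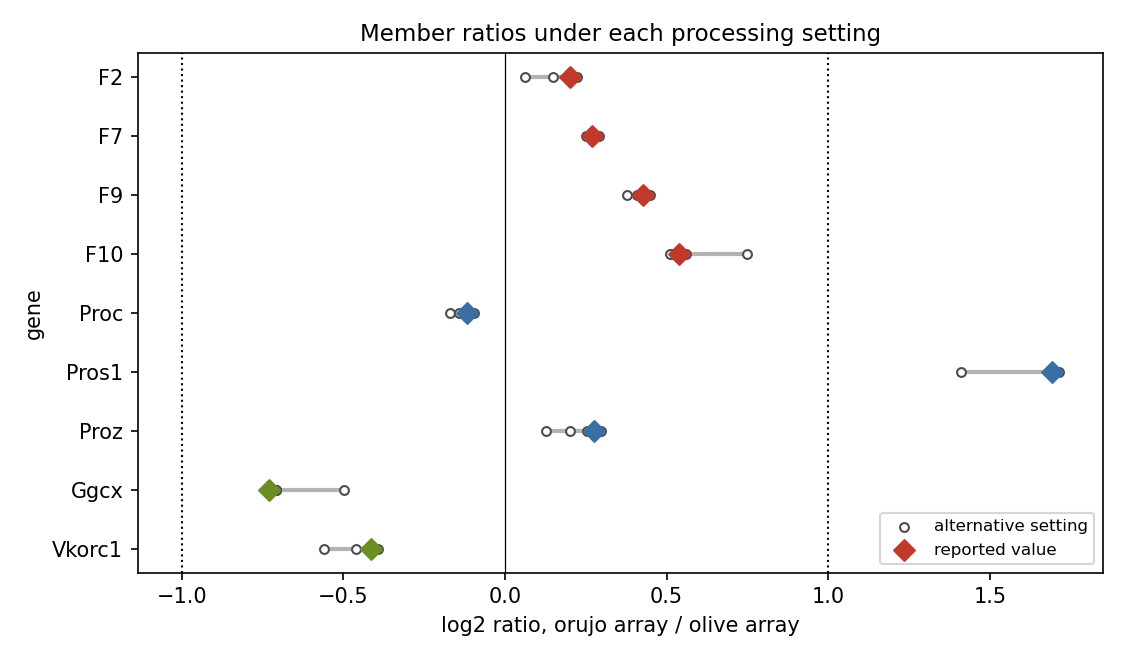
Log2 ratio of the orujo array over the olive array for each member as reported (diamonds, red for clotting factors, blue for anticoagulants, green for vitamin K cycle enzymes) and under each alternative setting (open circles), with dotted lines at 2-fold. The circles of every member stay on the same side of 0 as its diamond, and Pros1 ranges from 1.41 to 1.71.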

How the data were processed

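Per the labels, targets were made by the Affymetrix standard procedure from about 8 µg of liver total RNA. The authors deposited 1 intensity per probe set on a linear scale. The sources used here give neither the summary software and its version nor detection calls. The equal trimmed means show that the deposited intensities had been scaled. Control probe sets (64) were set apart. Of 22626 others, 20380 had 1 gene symbol in the platform annotation, 691 several and 1555 none, and only the first kind was named. Entrez identifiers of 20351 matched the RefSeq gene table (GRCm38.p6), and 0 symbols changed. Values under the floor were raised to it before log2, and each gene was represented by its brightest probe set (highest mean log2). No test was possible. The number of arrays limits the precision.

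Members and lists were chosen with earlier results of these data known. The text names all members, Apoe, the highest and lowest measured gene of each list, the next 2 by absolute ratio, and the 3 genes nearest to the member with the largest ratio. The macrophage and exocrine pancreas marker lists were given as ranges instead, without naming their genes. Cell type markers outside this rule (among them Cd3e, Gp9, S100a8 and S100a9) were named to account for their whole lists, after their values were seen, and other exceptions are stated beside them. Alternatives were rescaling, median centring, quantile normalization, loess (span 0.4), a floor at the 25th or 75th percentile, adding the floor instead of raising values to it, the mean of a gene's probe sets, and leaving out shared-sequence probe sets. Shared-sequence probe sets were taken by name, with a letter such as s, x or a before the final _at. The letter alone set this class, and whether such a probe set also reads another gene was not tested. The calculation was tested on simulated data, with planted changes larger than any member ratio, in genes well above the floor. The added noise was smaller than the single probe set SD. That check does not cover ratios as small as those of the members, or signals near the floor. Python 3.11.15, pandas 2.3.3 and statsmodels 0.14.6 were used.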

Additional observations from a re-analysis of the deposited data

How the results depend on the processing

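The 9 alternative settings gave 80 recomputed log2 ratios of single members, and all 80 kept the sign reported. Pros1 ranged from 1.41 with the floor added to each value to 1.71 with ratios centred on the median, and was the single member past 2-fold in each. F2 ranged from 0.06 under quantile normalization to 0.22, and F10 from 0.51 to 0.75 with the mean of its probe sets. Proz was at 0.13 without its _a_at probe set. Ggcx had no ratio at the 75th percentile floor and was at -0.50 with the floor added. Vkorc1 ranged from -0.56 to -0.39. The difference of anticoagulant minus clotting factor medians was -0.07 as reported and ranged from -0.22 without shared-sequence probe sets to -0.05 under quantile normalization, with -0.15 for the mean of a gene's probe sets. With means over the genes it was 0.26, the anticoagulants being at 0.62, and without Pros1 it was -0.27, with 0 members at least 2-fold higher; this pair of settings was chosen after seeing the data. As reported, 88 of all measured genes passed 2-fold upward and 65 downward. A 25th percentile floor gave 196 upward and 223 downward, a 75th percentile floor 50 and 27, and adding the floor 56 and 41. For want of replicates, ratios and medians were set against the single probe set SD of 0.31, and gene counts against a limit of 1.5 times the reported count. No paired analysis was possible because each diet had 1 array. Pros1 and the other 6 members with 1 probe set have no repeated measurement here.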
